A study of Danio rerio with 14 samples.

Results

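Among the strong enhancer-class H3K27ac peaks of wild-type zebrafish embryos, 1561 had no H3K27ac peak in MZspg embryos but a peak in both MZsox19b libraries, and these are called lost only in MZspg. They were chosen by a fixed rule from 125836 wild-type (WT) H3K27ac peaks on chromosomes 1 to 25, without the stretch of chromosome 16 from 36 to 37 Mb. The rule took the 20000 peaks with the highest fold enrichment, ties going to the larger −log10 q. It then removed the 11914 that overlapped a WT H3K4me3 peak (promoter-class), which left 8086 enhancer-class peaks. Absence from the MZspg list and presence in both MZsox19b lists by an overlap of at least 1 bp gave the 1561 members, 19.3% of the enhancer-class peaks.

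The series profiled H3K27ac and H3K4me3 by chromatin immunoprecipitation and sequencing (ChIP-seq) in whole embryos of AB/TL background, collected 4.3 hours after fertilization (hpf), the age at which the wild type is at dome. It holds 14 libraries, of which 7 are inputs for which no peak list was analysed here. MZspg embryos carry the m793 null allele of pou5f3 and lack the protein both from the mother and from their own genome, and their parents come from a line kept alive by injecting Pou5f3 mRNA. MZsox19b embryos carry m1434, a frameshift allele of sox19b made with TALEN nucleases and kept as a single line. Each ChIP used a pool of many embryos. The WT and MZspg H3K27ac libraries each combined 2 ChIP experiments before sequencing, whereas the MZsox19b H3K27ac libraries are 2 replicates from separate experiments. Mutants were matched to the wild type by age. The study describes late onset of zygotic transcription in all its mutants, MZspg included, and the delay was strongest in MZsox19b. It also describes late gastrulation in MZsox19b and an arrest of MZspg embryos in gastrulation. Loss of a peak at a given locus and a later appearance of it cannot be told apart at a single age, and neither can a weaker mark in all cells and the mark in fewer cells.

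Acetylation of histone H3 at lysine 27 is placed by acetyltransferases such as p300 that transcription factors bring to active enhancers and promoters. Trimethylation at lysine 4 of the same histone marks mainly promoters, so that H3K27ac without it is commonly read as a sign of an enhancer. Pou5f3, the zebrafish relative of mammalian Oct4, and Sox19b, the maternal member of the SoxB1 family, are DNA-binding factors loaded into the egg that take part in starting zygotic transcription.

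Apart from MZsox19b H3K27ac, every genotype had 1 library for a mark, so no test between genotypes was possible, and no p-values are given. The intervals are 95% intervals for counting error (Wilson for shares, Newcombe for differences of shares, order statistics for medians), and they are too narrow insofar as neighbouring peaks are not independent. The lists differed in length. WT and MZspg had 125836 and 122893 H3K27ac peaks over 50.8 and 57.2 Mb, whereas the MZsox19b lists had 141202 and 173020 peaks over 89.3 and 109 Mb. A WT peak was thus more easily found in a MZsox19b list than in the MZspg list by chance alone. With the MZsox19b lists cut from the lowest fold enrichment to the covered length of the MZspg list, 908 of the 8086 enhancer-class peaks met the rule in place of 1561. The cut also lowers the number of enhancer-class peaks found in both MZsox19b lists, which is not given here.

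For comparison, 5049 enhancer-class peaks were kept, that is, they overlapped a peak in MZspg and in both MZsox19b lists. Lost and kept peaks together numbered 6610, so that 23.6% of the enhancer-class peaks found in both MZsox19b lists lacked a MZspg peak. Without regard to MZsox19b, a MZspg peak was lacking at 29.0% of all enhancer-class peaks, at 10.3% of promoter-class peaks and at 17.8% of all 20000 peaks. The remaining enhancer-class peaks were absent from both mutants (533), from MZsox19b alone (375), or from a single MZsox19b list (316 with and 252 without a MZspg peak). These counts follow from the rule and describe it.

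Lost peaks were on average weaker in the wild type than kept ones. The median WT rank was 12723 for the lost peaks, with a range of 186 to 19996, and 10807 for all kept peaks, where rank 1 is the highest fold enrichment. The share lost rose with WT rank from 13.1% (9.77 to 17.2%) of the lost and kept peaks among ranks 1 to 2000 to 29.9% (26.8 to 33.3%) among ranks 18001 to 20000. To set this aside, each lost peak was paired with the unused kept peak nearest in WT rank. The 1561 pairs differed by at most 28 ranks, with a median of 2, and both sets had a median WT fold enrichment of 4.78. These 1561 kept peaks are called kept partners below, and each comparison with them is at matched WT rank. The limit itself fell within a run of equal values, since the last 3 lost peaks inside it, at ranks 19913, 19916 and 19996, had fold enrichments of 3.87, 3.87 and 3.84, and the next 3 peaks that would have met the rule, at ranks 20004, 20009 and 20024, had 3.84 each.

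The 10 lost peaks highest in the wild type lay on 7 chromosomes and ranged from 16.8-fold to 22.5-fold enrichment. Their positions are given in danRer11. The highest was at chr13:17011738-17014228, with a WT rank of 186 and a WT fold enrichment of 22.5. Its fold enrichment was 12.0 and 7.76 in MZsox19b replicates 1 and 2, and the nearest MZspg H3K27ac peak lay 1297 bp away. The second, at chr4:3114665-3118378, had a WT fold enrichment of 22.1, and 23.2 and 19.7 in the MZsox19b replicates, but its rank of 213 in WT compared with 1534 and 1206 there. It stood 26736 bp from any MZspg H3K27ac peak but only 182 bp from a WT H3K4me3 peak, which places it at the edge of the enhancer class. The third, at chr17:13859196-13861422, had a WT fold enrichment of 20.7, and 8.89 and 7.19 in the MZsox19b replicates. No MZspg peak lay within 33889 bp of it.

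These peaks differed widely in how they ranked in MZsox19b. The peak at chr6:27935576-27938171 had a WT fold enrichment of 20.4 but only 3.18 and 2.86 in the MZsox19b replicates, where it ranked 48215 and 55290. In contrast, the peak at chr12:44733474-44736306 had a WT fold enrichment of 18.9, and 34.4 and 26.3 in the MZsox19b replicates, where it ranked 332 and 396 against 497 in WT. The peak at chr4:42791128-42792524 also ranked slightly better in MZsox19b, at 707 and 635 against 774 in WT, with fold enrichments of 29.1 and 23.3 against 16.8. Fold enrichments were not scaled between libraries, so that ranks rather than folds are to be compared across genotypes. At chr6:55341925-55345100 both gave different orders, since the fold enrichment was 17.9 in WT and 22.6 and 22.1 in the replicates, whereas the rank was 617 in WT and 1647 and 785 in the replicates.

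The remaining 3 of the 10 ranked from 10368 to 18787 in MZsox19b replicate 1 and from 10480 to 20916 in replicate 2. The medians over the 10 were 7480.5 and 9829.5, so that these 3 stood toward the weak end. The peak at chr2:18073114-18079187 was the widest at 6074 bp and had a WT fold enrichment of 18.9, and 5.43 and 4.77 in MZsox19b. At chr17:48786528-48788233 the values were 17.9 in the wild type and 7.49 and 7.19 in MZsox19b, with WT H3K4me3 at a distance of 281 bp. At chr3:36086795-36089194 they were 17.3, 8.15 and 7.06. Over the 10 peaks, MZsox19b ranks ran from 332 to 48215 in replicate 1 and from 396 to 55290 in replicate 2. MZsox19b H3K4me3 overlapped 4 of the 10, against 6.15% of all lost peaks and 10.5% of all enhancer-class peaks. Another lost peak lay within 20 kb of 9 of the 10, against 46.3% of all lost peaks.

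In width, lost peaks differed little from their kept partners. The median was 821 bp (785 to 853) for lost peaks and 866 bp (821 to 915) for partners, and the lost peak was the wider of the pair in 47.8% of pairs (45.3 to 50.3%), an interval that includes 50%. This reading depended on the setting, since the interval excluded 50%, with lost peaks narrower, when WT peaks within 1000 bp were merged (43.1%, 40.3 to 46.0%), when no WT H3K4me3 peak was allowed within 1000 bp (47.0%, 44.4 to 49.7%) and without MZsox19b replicate 1 (47.2%, 44.9 to 49.5%). The range was 166 to 6871 bp for lost peaks and 167 to 9253 bp for partners. Before matching, the share lost fell from 29.3% (26.6 to 32.3%) of peaks of at most 400 bp to 19.9% (18.0 to 22.0%) of peaks above 1600 bp. A wide peak has more bases with which to overlap a peak of another list, and the part of this in the shares was not tested.

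Lost peaks lay somewhat farther from WT H3K4me3 than their partners as deposited. The median distance to the nearest WT H3K4me3 peak was 7517 bp (6918 to 8360) for lost peaks and 5812 bp (5243 to 6303) for partners. The lost peak was the farther of the pair in 53.9% of pairs (51.4 to 56.3%), so that the difference was small for a given pair. The interval included 50% when no WT H3K4me3 peak was allowed within 1000 bp (52.4%, 49.7 to 55.0%) and when WT peaks within 1000 bp were merged (52.1%, 49.2 to 54.9%). A WT H3K4me3 peak within 1 kb was found for 206 lost peaks (13.2%, 11.6 to 15.0%) and 249 partners (interval of 14.2 to 17.9%). At the other end, 124 lost peaks (7.94%) and 90 partners (5.77%) had none within 50 kb. Among all lost and kept peaks, the share lost was 21.2% (18.8 to 23.9%) within 1 kb of WT H3K4me3, 21.8% from 1 to 5 kb, 22.5% from 5 to 20 kb, 29.1% (26.4 to 32.0%) from 20 to 50 kb and 31.8% (27.4 to 36.6%) beyond 50 kb. The share was thus flat up to 20 kb and higher beyond. Without matching on WT rank, the median distance was 12477 bp for the 533 peaks absent from both mutants. It was 14408 bp for the 375 absent from MZsox19b alone. A larger distance than at kept peaks was therefore not particular to the peaks lost only in MZspg.

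**Figure D1:**
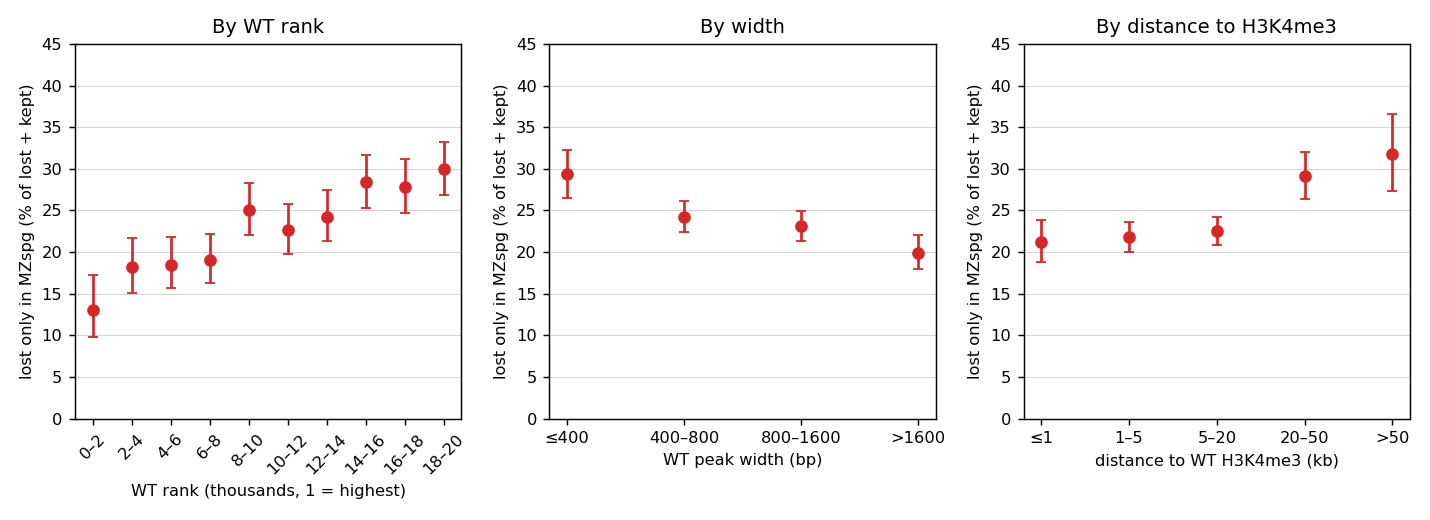
Share of enhancer-class peaks lost only in MZspg, in percent of lost and kept peaks (y axis), by WT rank in steps of 2000, by WT peak width in bp and by distance to the nearest WT H3K4me3 peak in kb (x axes). Points are shares and bars are Wilson 95% intervals. The share rises from 13.1% to 29.9% over the ranks, falls from 29.3% to 19.9% with width and rises from 21.2% to 31.8% with distance.

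The lost peaks were spread over all 25 chromosomes. Chromosome 4 held the most, with 222 lost peaks and 28.6% (25.6 to 31.9%) of its lost and kept peaks. The share was highest on chromosome 16 with 32.3% (26.7 to 38.3%, 80 lost peaks) and lowest on chromosome 20 with 18.4% (14.2 to 23.4%, 49 lost peaks). The interval included 23.6%, the share over all chromosomes, on 20 of the 25 chromosomes, lay above it on 3 (2, 4 and 16) and below it on 2 (5 and 20). The long arm of zebrafish chromosome 4 is known for its repeats and gene families in many copies, where reads are hard to place, and the part of this in the lost peaks there was not tested.

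In MZsox19b, where every lost peak had an overlapping peak by the rule, that peak ranked lower than at the kept partners. The rank was taken from the highest overlapping peak of the MZsox19b list, and the rule used its presence but not its rank. The median rank in replicate 1 was 24115 (21829 to 26042) at lost peaks and 14527 (13624 to 15542) at partners. In replicate 2 it was 26036 (23563 to 28219) and 13665 (12695 to 14706). The mean of the replicate medians was 25076 ± 1358 (SD, n = 2) at lost peaks and 14096 ± 610 (SD, n = 2) at partners. Both sets were read in the same 2 libraries, so these SDs do not give the error of the difference. The difference had the same direction in each replicate. The lost peak ranked lower than its partner in 61.4% of pairs (58.9 to 63.8%) in replicate 1 and in 65.0% (62.6 to 67.3%) in replicate 2. Partners had to be found in 1 list more than lost peaks, and the part of this in the ranks was not tested.

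The ranks were made from the fold enrichment of the MZsox19b peaks, which therefore restates them, and the width of these peaks ran the same way. The median fold enrichment was 4.68 at lost peaks and 6.46 at partners in replicate 1, and 4.20 and 6.17 in replicate 2, with means of the replicates of 4.44 ± 0.342 and 6.31 ± 0.205 (SD, n = 2). The median width of the overlapping MZsox19b peak was 942 bp at lost peaks and 1430 bp at partners in replicate 1, and 1044 and 1633 bp in replicate 2. The difference in the mutant therefore stood beside a difference in WT width of only 821 against 866 bp. Several WT peaks can lie under 1 broad MZsox19b peak, and the 1561 lost peaks fell on 1478 and 1479 distinct peaks of the replicates.

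Lost peaks nevertheless included loci among the highest of MZsox19b. A rank of 10000 or better in both replicates was found at 320 lost peaks (20.5%, 18.6 to 22.6%) and at 522 partners (33.4%, 31.1 to 35.8%). The rank in both replicates was better than in the wild type at 351 lost peaks (22.5%, 20.5 to 24.6%) and at 563 partners (36.1%, 33.7 to 38.5%). At the weak end, a rank worse than 100000 was found at 112 and 119 lost peaks in the replicates and at 43 and 46 partners. The ranks of the lost peaks in the replicates had a Spearman correlation of 0.882 (across 1561 peaks, which share their libraries), whereas their correlation with WT rank was 0.177 and 0.160. How strong a lost peak was in MZsox19b was therefore shared between replicates and was only weakly related to its strength in the wild type, within the narrow range of WT strength that the rule admits. The partners were similar in this, with 0.893 between replicates and 0.284 and 0.279 with WT rank.

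**Figure D2:**
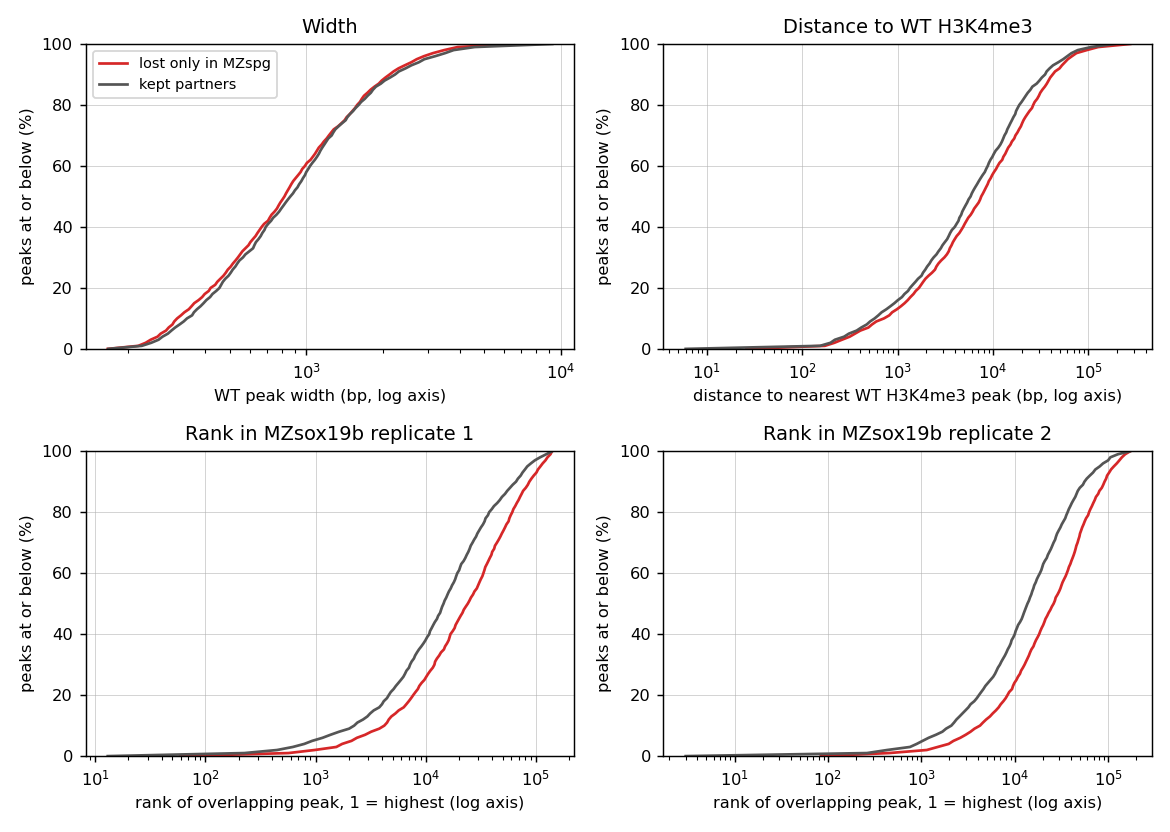
Cumulative distributions over 1561 peaks lost only in MZspg and their 1561 kept partners at matched WT rank (y axes, percent of peaks at or below the value) of WT peak width in bp, distance to the nearest WT H3K4me3 peak in bp, and rank of the overlapping peak in MZsox19b replicates 1 and 2 (x axes, log scale). The widths nearly coincide (medians of 821 and 866 bp), whereas the lost peaks are shifted to larger distances and, in both replicates, to worse ranks.

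H3K4me3 in the mutants was not used by the rule. A MZsox19b H3K4me3 peak overlapped 10.5% of all enhancer-class peaks, although none of these had a WT H3K4me3 peak. It overlapped 96 lost peaks (6.15%, 5.06 to 7.45%) and 229 partners (14.7%, 13.0 to 16.5%), a difference of −8.52 percentage points (−10.7 to −6.40). Partners had to be found in 1 list more, and they also ranked better in MZsox19b H3K27ac. Their median ranks were 14527 and 13665 in the replicates, against 24115 and 26036 at lost peaks. The part of this in the difference was not tested. These H3K4me3 peaks were mostly weak, with a median fold enrichment of 2.86 at lost peaks and 3.50 at partners. The 96 lost peaks with MZsox19b H3K4me3 were high in MZsox19b H3K27ac, with median ranks of 7193 and 7096 in the replicates against 25965 and 27301 for the other 1465 lost peaks. They also lay nearer to WT H3K4me3, at a median of 2685 bp against 7875 bp, while their median WT ranks were close, at 12260 and 12763.

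MZspg H3K4me3 was nearly absent from the lost peaks. It overlapped 1.06% of all enhancer-class peaks, 1 of the 1561 lost peaks (0.0641%, 0.0113 to 0.362%) and 18 partners (1.15%, 0.731 to 1.82%), a difference of −1.09 percentage points (−1.75 to −0.572). Among the 10000 highest WT peaks the difference was −0.71 (−1.90 to 0.26), an interval that includes 0, and without chromosome 4 it was −0.60 (−1.20 to −0.13). The MZspg H3K4me3 list was the shortest of the 3, with 22502 peaks against 53634 in WT and 42572 in MZsox19b. The single lost peak was at chr21:25901770-25903694, at a WT rank of 8831. Its MZspg H3K4me3 fold enrichment was 2.88, and its MZsox19b H3K27ac fold enrichments were 9.08 and 7.82. With 1 exception, lost peaks had a peak of neither mark in MZspg. For H3K27ac this follows from the rule, and MZspg H3K4me3 was rare at enhancer-class peaks of any kind. Partners had to overlap a MZspg H3K27ac peak, and the part of this in the difference was not tested.

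MZspg H3K27ac peaks were also fewer in the surroundings of lost peaks than in those of partners. Within 25 kb of the summit, the median number of MZspg H3K27ac peaks was 4 (lower and upper quartiles of 1 and 8) at lost peaks and 15 (8 and 22) at partners, and it was lower at the lost peak in 82.6% of pairs (80.7 to 84.4%). WT peaks in the same windows differed less, with medians of 14 and 15. The rule and the pairing used the MZspg list, so these values describe the surroundings and support nothing by themselves. The partner's own MZspg peak is among those counted. Therefore the covered length was also taken with the peak and 1 kb on each side of it left out, a measure added after the data had been seen.

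With the peak itself left out, the median covered length of MZspg H3K27ac was 1.21 kb (quartiles of 0.361 and 3.09 kb) around lost peaks and 6.69 kb (2.59 and 13.9 kb) around partners. For the wild type the medians were 4.94 and 6.36 kb. For MZsox19b they were 6.48 and 10.3 kb in replicate 1 and 8.27 and 13.0 kb in replicate 2. Around lost peaks, the MZspg median was thus well below that of WT, and the MZsox19b medians were above it. Other lost peaks, which lack MZspg H3K27ac by the rule, were not left out of these windows. Another lost peak stood within 20 kb of 46.3% of lost peaks. The part of this in the medians was not tested, so they too only describe the surroundings. The whole lists cover 50.8 Mb in WT, 57.2 Mb in MZspg and 89.3 and 109 Mb in MZsox19b. The medians were not scaled to list length, and the part of this in them was not tested. MZspg covered less than WT around 1332 lost peaks (85.3%, 83.5 to 87.0%) and around 698 partners (44.7%, 42.3 to 47.2%). No MZspg H3K27ac at all was found around 186 lost peaks (11.9%) and 31 partners (1.99%), whereas the wild type had none around only 25 and 13. Around the 533 peaks absent from both mutants, the median was 0.684 kb in MZspg and 3.19 kb in WT. Around the 375 absent from MZsox19b alone, it was 3.66 and 4.09 kb. Low MZspg coverage around the peak was thus not particular to the peaks lost only in MZspg.

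**Figure D3:**
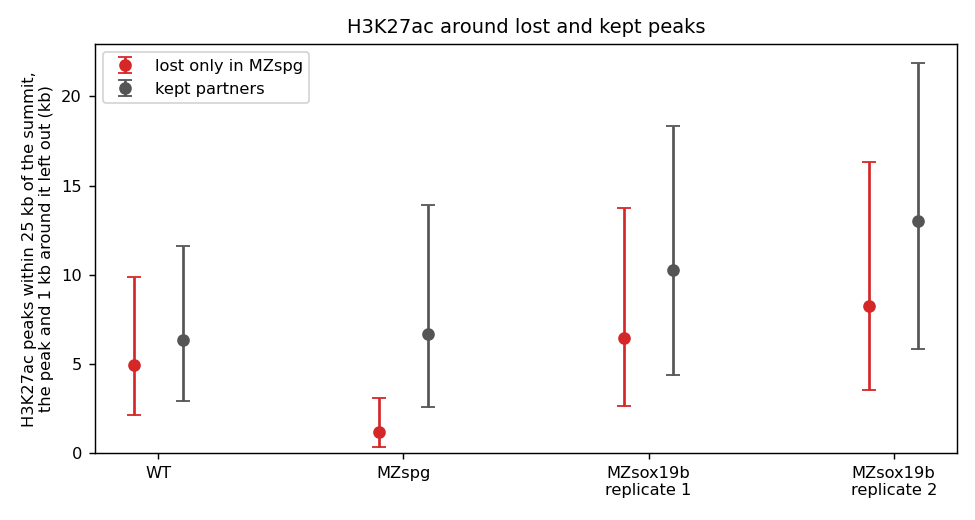
Length covered by H3K27ac peaks (y axis, kb) within 25 kb of the WT summit, without the peak and 1 kb on each side of it, in each of the 4 H3K27ac lists (x axis), for 1561 peaks lost only in MZspg and 1561 kept partners. Points are medians and bars run from the lower to the upper quartile over peaks. The lowest median is that of MZspg around lost peaks, at 1.21 kb against 6.69 kb around partners.

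Not every lost peak stood in a stretch without MZspg H3K27ac. The nearest MZspg H3K27ac peak lay at a median of 3834 bp from the edge of the lost peak, with a range of 12 to 190308 bp. It lay within 1 kb at 359 lost peaks (23.0%, 21.0 to 25.2%) and beyond 10 kb at 428 (27.4%, 25.3 to 29.7%). At the former, a shift of a peak's edge and the loss of a peak cannot be told apart from the lists.

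Lost peaks lay near each other. Another lost peak stood within 20 kb of 722 of them (46.3%, 43.8 to 48.7%), and another partner within 20 kb of 567 partners (36.3%, 34.0 to 38.7%), a difference of 9.93 percentage points (6.48 to 13.3). Within 1 kb, the counts were 446 (28.6%) and 192 (12.3%). This comparison has a limit, since the lost peaks are all of their kind and the partners are 1561 of 5049 kept peaks, and drawing a part of a set thins its neighbours. Of all kept peaks, 65.4% had another kept peak within 20 kb. Of the 533 peaks absent from both mutants, 43.2% had another of their class within 20 kb. Of the 375 absent from MZsox19b alone, 32.0% did. The sets differ in size and were not matched, but lying near others of the class was not particular to the peaks lost only in MZspg.

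A measure without this limit, added after the data had been seen, is the class of the nearest neighbour among all 6610 lost and kept peaks. Of the 980 lost peaks with such a neighbour within 20 kb, it was lost at 620 (63.3%, 60.2 to 66.2%). Of 1059 partners, it was lost at 122 (11.5%, 9.73 to 13.6%), a difference of 51.7 percentage points (48.1 to 55.2). Of all lost and kept peaks, 23.6% were lost. Both classes were set by the MZspg list that the rule used. A MZspg peak that overlaps neighbouring WT peaks gives each of them the same class. These values therefore describe how lost peaks are arranged and support nothing by themselves. The share at lost peaks declined with distance, from 70.4% (66.6 to 73.9%) for neighbours within 1 kb to 58.7% (51.7 to 65.3%) from 1 to 5 kb, 43.4% (36.2 to 50.8%) from 5 to 20 kb and 36.1% (30.3 to 42.4%) from 20 to 100 kb. The corresponding shares at partners were 8.85%, 14.7%, 16.3% and 19.6%. Neighbours at the shortest distances can be pieces of 1 broad region that was split into several peaks. When WT peaks within 1 kb were merged, the difference in nearest neighbours was 31.8 percentage points (25.6 to 37.7) and the difference in clustering was 2.70 (−0.17 to 5.56), an interval that includes 0.

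Chained within 20 kb, the lost peaks formed 1106 groups. Of these, 839 were single peaks, 190 were pairs, 40 held 3 peaks, 20 held 4, and 17 held 5 or more with 142 peaks among them. The largest held 21. The partners formed 7 groups of 5 or more, and their largest held 8. They are only a part of the kept peaks, and drawing a part thins groups, so these sizes do not show that lost peaks form larger clusters than kept peaks. Pieces of 1 broad region also count as separate peaks here. Lost peaks in clusters of 5 or more were higher than single ones in the wild type, with median ranks of 9842.5 and 13838, and also in MZsox19b, with median ranks of 16514 and 26610 in replicate 1 and 15194 and 29589 in replicate 2. They were surrounded by more WT H3K27ac, with medians of 18.4 and 3.07 kb, but by no more MZspg H3K27ac, with medians of 0.999 and 1.32 kb. This follows in part from the grouping, since the other lost peaks of a cluster are WT peaks without MZspg H3K27ac by the rule.

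The largest cluster, of 21 lost peaks, lay at chr4:42623800-42659828. Its members were narrow, with a median width of 453 bp. Their WT fold enrichment ran from 4.69 to 12.0 with a median of 7.22, and the fold enrichment of the overlapping MZsox19b peak from 12.8 to 27.8 (median 17.1) in replicate 1 and from 8.71 to 28.0 (median 14.5) in replicate 2. H3K27ac peaks covered 51.7% of the cluster in WT, 81.5% and 82.1% in the MZsox19b replicates and 3.57% in MZspg. MZspg had 6 short peaks in it, of which the highest reached 7.05-fold, and 4 of the 6 overlapped a WT H3K4me3 peak. The highest lost peak of the cluster, chr4:42627115-42627960, had a WT fold enrichment of 12.0, and 20.3 and 28.0 in the MZsox19b replicates. Its rank was 2201 in WT and 2123 and 293 in the replicates, and it also carried MZsox19b H3K4me3 at 2.40-fold. At rank 10000, the fold enrichment was 5.53 in the WT list and 8.33 and 7.38 in the MZsox19b lists. Higher folds in MZsox19b than in WT are thus not by themselves better ranks. No kept enhancer-class peak lay in the cluster, and 4 promoter-class peaks did. It lies on the chromosome arm described above as rich in repeats.

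The second cluster, of 16 lost peaks, covered 41.7 kb at chr16:35492511-35534236. The WT fold enrichment of its members ran from 3.94 to 8.72 (median 4.69), and that of the overlapping MZsox19b peak from 3.00 to 13.0 (median 7.30) in replicate 1 and from 2.80 to 13.7 (median 6.68) in replicate 2. Coverage was 45.1% in WT, 56.4% and 60.0% in MZsox19b and 2.57% in MZspg. It contained no WT H3K4me3 peak, and 2 kept enhancer-class peaks lay in it. Just past its end at 41.7 kb, however, a WT H3K4me3 peak of 69.3-fold began 42.6 kb from the cluster start. The highest lost peak of the cluster was chr16:35503686-35504552, with 8.72 in the wild type and 10.7 and 13.7 in the MZsox19b replicates. Its rank was 4335 in WT, 6985 in replicate 1 and 3159 in replicate 2, so that the replicates differed in direction. As on chromosome 4, MZsox19b peaks covered more of the cluster than WT peaks, with 5 short peaks left in MZspg. The MZsox19b lists are longer over the whole genome, at 89.3 and 109 Mb against 50.8 Mb in WT. The part of this in the coverage was not tested.

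The third cluster, of 13 lost peaks, covered 58.0 kb at chr11:7551406-7609442, and it differed from the former 2 in MZsox19b. Its members had a WT fold enrichment of 3.94 to 7.97 (median 4.50), but the overlapping MZsox19b peaks reached only 2.15 to 5.99 (median 2.62) and 2.35 to 6.55 (median 3.24). Coverage was 69.8% in WT, 35.6% and 54.0% in MZsox19b and 5.28% in MZspg. The highest lost peak, chr11:7601542-7602623, had 7.97 in WT, and 2.34 and 2.54 in MZsox19b, where it ranked 91960 and 68447. In addition to the lost peaks, this cluster held 2 kept and 2 promoter-class peaks. It also held 1 enhancer-class peak absent from both mutants and 3 present in a single MZsox19b list and not in MZspg. H3K27ac at this locus therefore covered little in MZspg and was also lower in MZsox19b than in WT.

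**Figure D4:**
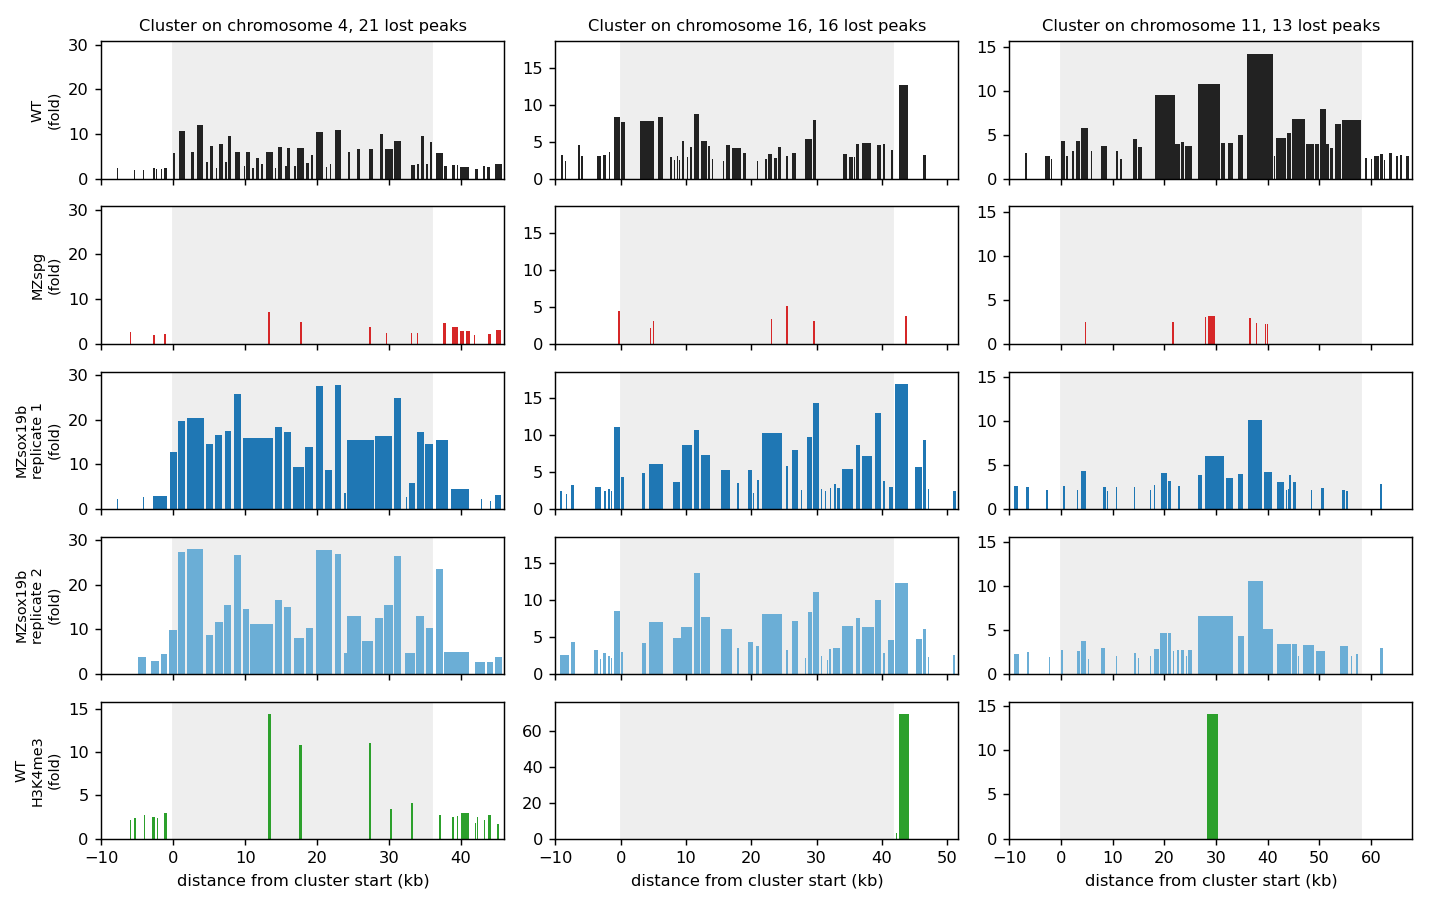
Maps of the 3 largest clusters of peaks lost only in MZspg, on chromosomes 4, 16 and 11. Bars are peaks drawn to scale at their distance from the cluster start in kb (x axis) with their fold enrichment as height (y axis), in the H3K27ac lists of WT, MZspg and MZsox19b replicates 1 and 2 and in the WT H3K4me3 list, and the grey field is the cluster with 21, 16 and 13 lost peaks. Rows of WT and MZsox19b peaks stand above a few short MZspg peaks, which cover 3.57%, 2.57% and 5.28% of the clusters.

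The next clusters were alike in MZspg. The fourth, of 11 lost peaks at chr15:33314782-33354702, was covered to 74.7% in WT, 72.7% and 76.0% in MZsox19b and 0.681% in MZspg. The fifth, of 9 lost peaks at chr17:13836564-13877952, held the third highest of all lost peaks. It was covered to 52.1% in WT and to 30.5% and 31.5% in MZsox19b, and it contained 0 MZspg H3K27ac peaks over 41.4 kb. Over the 10 largest clusters, coverage ran from 45.1 to 83.3% in WT (median 62.4%), from 0 to 18.8% in MZspg (median 2.85%), from 30.5 to 93.3% in MZsox19b replicate 1 (median 60.6%) and from 31.5 to 94.9% in replicate 2 (median 65.7%). In each of the 10, MZspg was the lowest of the 4 lists, which follows in part from how the clusters were chosen. Over the 10 largest clusters of kept partners, coverage in MZspg ran from 35.9 to 80.8% (median 59.4%) and in WT from 15.8 to 75.9% (median 55.6%). The few MZspg peaks in the clusters of lost peaks, 41 in all, overlapped WT H3K4me3 in 10 cases (24.4%, 13.8 to 39.3%), a share near the 24.5% of all MZspg H3K27ac peaks.

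**Figure D5:**
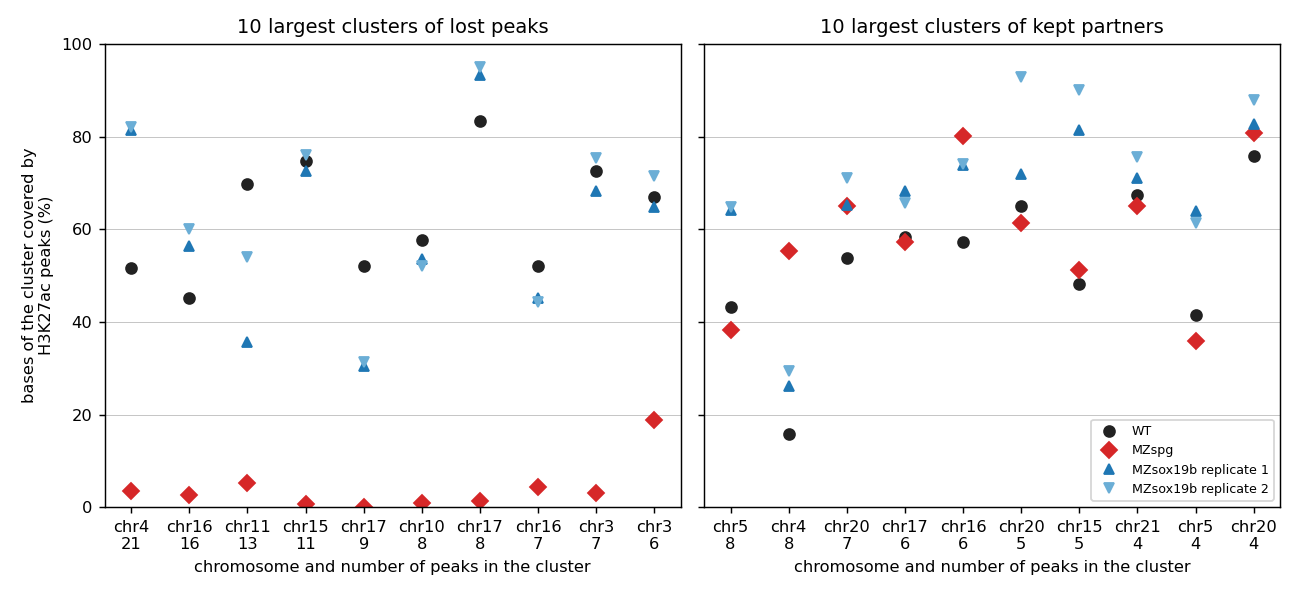
Share of bases covered by H3K27ac peaks (y axis, percent) in the 10 largest clusters of peaks lost only in MZspg (left) and of kept partners (right), in each of the 4 H3K27ac lists. The x axis names the chromosome and the number of peaks of each cluster, and there is 1 point per list and cluster. In the clusters of lost peaks MZspg lies between 0 and 18.8% and every other list at 30.5% or above, whereas in the clusters of partners MZspg lies between 35.9 and 80.8%.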

How the data were processed

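Peak lists in danRer11 were deposited for 7 ChIP libraries of the 14 libraries of the series. Per the paper's methods and the submitters' processing notes, the authors mapped paired-end reads with Bowtie2 2.3.2.2 and called peaks per library with MACS2, with pooled inputs as background and a limit on the q-value. bedtools is named in the notes without a role. The deposited score restates the −log10 q, multiplied by 10 and cut to an integer. The deposited fold enrichment is a ratio of ChIP at the summit over local background, and the deposited −log10 p and −log10 q (p-value and q-value of the peak) measure the peak against that background. The last deposited column is the offset of the summit. Over the lists, −log10 q started at 1.30. The lists carry no read counts, so depth per value is unknown here. Sequencing depth and the success of a precipitation both act on fold enrichment and on list length. The read totals the study lists are similar among the H3K27ac ChIP libraries. It lists the same total for both MZsox19b replicates, although their numbers of pairs aligned once and more than once differ. The part of depth in the lists was not tested.

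Groups were taken from the sample titles. Peaks on chromosomes 1 to 25 were used. Ranks followed fold enrichment, −log10 q and file order, the WT ranks after chromosome 16 from 36 to 37 Mb had been left out. Overlap of 1 bp counted as presence. Distances were between peak edges. Partners were the unused kept peaks nearest in WT rank, taken in order of rank. The regions named are the 10 lost peaks highest in WT, the 3 clusters with the most members, and the 3 lost peaks on either side of the limit of 20000. The next 2 clusters and the lost peak with MZspg H3K4me3 were named after their values were seen. The members, the measures and the alternatives were chosen with earlier results of these data known. No genome or annotation of build danRer11 was used, so no sequence, motif or gene is given. The overlap, distance, clustering and pairing steps were tested on simulated peaks. Python 3.11.15, numpy 2.4.6, pandas 2.3.3, scipy 1.17.1 and matplotlib 3.10.9 were used.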

Additional observations from a re-analysis of the deposited data

Results flagged for a closer look

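On sequences other than chromosomes 1 to 25, which the rule leaves out, 255 WT H3K27ac peaks above the fold enrichment of the last peak inside the limit met the other conditions, that is, no WT H3K4me3 peak, no MZspg H3K27ac peak and a peak in both MZsox19b lists. They were 29.4% (26.5 to 32.5%) of the 867 lost and kept peaks there, against 23.6% on the chromosomes. They are singled out as a signal in data outside the comparisons, and no difference between the sets of sequences was tested. On chromosome 16 from 36 to 37 Mb, also left out by the rule, 0 peaks met it and 2 were kept.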

How the results depend on the processing

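Of 162 values under other settings, 128 stayed within the interval of the reported value (counts of members within 1.5 times), and 34 moved beyond it. No result whose interval excluded 50% of pairs, or a difference of 0, turned in direction. Width, whose interval included 50%, lay on the other side of it in 2 settings, 51.4% and 51.7% of pairs. Of the 162 values, 105 came from listed alternatives and 57 from settings or measures chosen after seeing the data. With no MZspg H3K27ac peak allowed within 1000 bp, the difference in clustering was 20.8 percentage points, that in nearest neighbours 64.9, and the lost peak was farther from WT H3K4me3 in 57.8% of pairs, with fewer MZspg peaks nearby in 85.0% and less MZspg coverage around it in 81.9%. Among the 10000 highest WT peaks there were 562 lost peaks, wider in 51.4% of pairs, with differences of 16.7 in clustering, 58.9 in nearest neighbours and −14.1 in MZsox19b H3K4me3, worse MZsox19b ranks in 65.3% and 70.5% of pairs, and fewer MZspg peaks nearby in 87.0% and less coverage in 84.0%. With MZsox19b lists cut to the covered length of the MZspg list, there were 908 lost peaks, clustering differed by 13.7, and ranks were worse in 56.6% and 59.1% of pairs. Matching on width as well gave a clustering difference of 13.9. With no WT H3K4me3 peak within 1000 bp, MZsox19b H3K4me3 differed by −5.90. With WT peaks within 1000 bp merged, the lost peak was wider in 43.1% of pairs, clustering differed by 2.70, nearest neighbours by 31.8 and MZsox19b H3K4me3 by −6.32, the rank in replicate 2 was worse in 62.2% and MZspg coverage lower in 74.5%. Windows of 10 and 50 kb gave clustering differences of 13.6 and 5.77 and nearest-neighbour differences of 55.2 and 47.6. With the highest peak of each 20 kb cluster alone, the lost peak was wider in 51.7% of pairs, worse in replicate 2 in 60.9%, with fewer MZspg peaks nearby in 74.5% and less coverage in 70.6%. In 7 cases an interval changed whether it included 50% or 0. Included anew were distance to WT H3K4me3 with no WT H3K4me3 peak within 1000 bp (52.4%) and with merged peaks (52.1%), clustering with merged peaks, and MZspg H3K4me3 among the 10000 highest (−0.71). Excluded anew, with lost peaks narrower, was width with no WT H3K4me3 peak within 1000 bp (47.0%), with merged peaks and without replicate 1 (47.2%). The cause of these shifts was not tested.

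Leaving out either MZsox19b replicate changed no interval's side except that of width. The lost peaks then numbered 1632 to 1742, the lost peak was wider in 47.2 to 47.9% of pairs and farther from WT H3K4me3 in 54.0 to 54.3%, and the remaining replicate ranked it lower in 62.2% (replicate 1) or 66.1% (replicate 2). Clustering then differed by 9.24 to 9.56 percentage points, nearest neighbours by 52.2 to 52.4, MZsox19b H3K4me3 by −8.52 to −8.44 and MZspg H3K4me3 by −1.21 to −1.10, with fewer MZspg peaks nearby in 82.5 to 82.7% and less MZspg coverage in 79.3 to 79.8%.

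No paired analysis was possible because only MZsox19b H3K27ac had replicates, so that no groups compared share more than 1 replicate number. Shares of an octamer and other motifs, GC content in windows of 200, 300 and 500 bp, distances to gene starts and gene lists were not run, since no genome or annotation of the build was used. Depth limits what an absent peak means, since the lists record no reads below the caller's limit.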
